A study of Homo sapiens with 28 samples.

Results

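The cells examined here derive from SK-N-AS, an established line of human neuroblastoma, and carry a MYCN gene that doxycycline switches on. The comparison set time 4, the earliest time after the drug, against time 0, and used 6 of the 28 arrays of the study, 3 at each time. They were chosen by their sample titles. Time 0 was SK-N-AS-tet-MYCN harvested at the start, and time 4 was the same line in the presence of doxycycline. The unit of time is not given in the labels, nor is the promoter of the transgene, whether the line is a single clone, or whether the replicates were separate cultures. P-values may therefore measure technical spread only. The arrays at times 8 and 24, with 3 each, were used to ask which genes moved later. A mock line, labelled SKNAS-pcDNA6TR after the vector of the tet repressor, went through the same course with 1 array at each time. Its arrays at times 0 and 4 serve here as the background of doxycycline and culture without the MYCN transgene. The lines already differed before the drug, as the markers below show.

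MYCN is a transcription factor of the MYC family. It pairs with MAX and binds E-box sequences such as CACGTG in promoters, and it is known for driving ribosome production, metabolism and cell division. Amplification of its gene marks high-risk neuroblastoma. In a tetracycline-inducible line a repressor blocks the transgene until the drug releases it, so that genes which follow MYCN can be ordered in time.

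Signals are linear array intensities, scaled by the authors to a common mean of 100.01 per array after trimming 2% at either end. A gene was tested where its mean log2 signal over all 28 arrays, the mock line included, reached 3.68, which corresponds to a signal of 12.8. This left 11865 of 19775 genes. A gene was called where the limma p-value adjusted by Benjamini-Hochberg was under 0.05. Array medians ranged from 12.9 to 20.2. The labelled cell type was checked by its markers: of the 19 mesenchymal markers, which define the mesenchymal state of neuroblastoma cells, 16 had a mean signal of at least 12.8 at time 4, and their summed signal was 23441 to 27208 at time 0 and 22189 to 26800 at time 4. Of 16 noradrenergic markers with a probe set, 7 reached that level at time 0 and 8 at time 4, with sums of 2503 to 3264 and 2091 to 2866. The list was mixed: PHOX2A averaged 4.37 and 3.0, but TBX2 averaged 1096 and 1032, RET 993 and 692, and GATA3 300 and 289. Schwann cell, immune and endothelial marker sums were 87.3 or less on each of the 6 arrays. The epithelial list was carried by keratin 18 (KRT18, mean 2240 at time 0 and 2278 at time 4). Of these lists 9 noradrenergic, 16 mesenchymal, 1 Schwann cell, 1 immune, 1 endothelial and 2 epithelial markers were bright enough over all arrays to be tested. None of the tested markers was called at time 4 in the fits of all 21 arrays, with or without the replicate block. RET, a noradrenergic marker, was called in a fit of the 6 arrays alone with the block. In such bulk RNA, fewer cells of a type and less RNA per cell cannot be told apart, and 3 arrays per time limit the precision.

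MYCN was already high at time 4. Its signal was 69.4, 79.2 and 103.4 in replicates 1, 2 and 3 at time 0, and 1857.7, 1549.4 and 3097.8 in the same replicates at time 4. Every time 4 array lay far above every time 0 array, and replicate 3 was the highest at both times. The ratio within a replicate was 26.8, 19.6 and 30.0. The log2 change was 4.65 (SE 0.17, adjusted p = 7.76e-13, limma, n = 3 against 3). The rise was not complete: time 4 reached 38.9%, 36.2% and 66.6% of the signal of the same replicate at time 48. At time 8 the arrays read 3840.5, 3810.4 and 4201.5, which is 0.93 higher than time 4 on the log2 scale (adjusted p = 0.0179, limma). In the mock line MYCN stayed between 1.6 and 3.0 at all 7 times, far under the signal of the MYCN line before the drug. The value rests on 1 probe set: the other 9 MYCN probe sets read 18.4 or less on every array at times 0 and 4, and with probe sets of the suffixes _s_at and _x_at left out, which may match several transcripts, MYCN was represented by a dim probe set with a log2 change of -0.72.

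**Figure D1:**
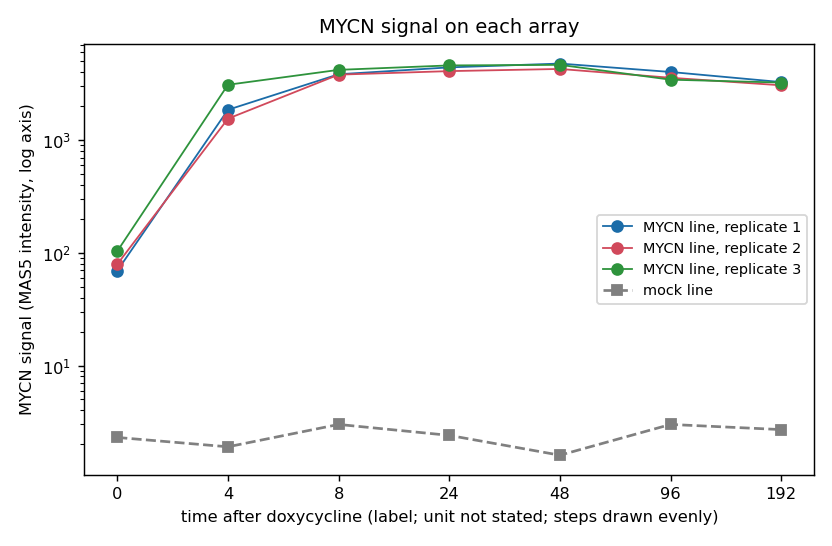
MYCN signal (log axis) against the labelled time in the 3 replicates of the MYCN line and in the mock line, with times spaced by order. Points are single arrays: time 4 lies between 1549.4 and 3097.8, well above time 0 and under the time 8 arrays, while the mock line stays at 3.0 or less.

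Beyond MYCN few genes passed the test at time 4. Without the replicate number in the model, MYCN was the single gene called, 0.00843% of the 11865 tested. Arrays of the same replicate number were weakly alike at these times. Deviations from the group means correlated at 0.20, 0.19 and 0.32 for replicates 1, 2 and 3, against at most 0.126, -0.06 and -0.06 with another number. The deviations of 3 arrays sum to 0 in each gene. Positive values for the same number thus lower those with other numbers, and the contrast is no independent test. Replicate 3 also differed from replicates 1 and 2 in a hybridisation control, so that pairing and this difference cannot be told apart for it. With the replicate number as a block limma called 12 genes (0.101%), 7 higher (0.059%) and 5 lower (0.0421%). The 6 that rose besides MYCN were CDR2, PPIF, DBF4, SINHCAF, TRIB1 and DIMT1. The 5 that fell were MOB3A, LINC00205, ALLC, GARRE1 and ZSCAN30. Changes were small, from 0.36 to 0.81 on the log2 scale for the risers and from -0.50 to -1.02 for the fallers, against a change of 4.65 for MYCN. The calls come from a fit of all 21 arrays of the line. With the same block fitted on the 6 arrays of times 0 and 4 alone, limma called 3 genes, MYCN, PABPC1L and RET, and none of the 11 others named here. In the fit of 21 arrays, leaving out time 0 replicate 1, 2 or 3 left 5, 1 and 1 genes called, and leaving out time 4 replicate 1, 2 or 3 left 3, 8 and 7. MYCN remained called in each of these.

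Because MYCN binds E-boxes, the promoters of 5 of the 6 risers besides MYCN are shown, with TRIB1 left out. They are given as the 250 bases before the transcription start from RefSeq (GRCh38.p14), written 5′ to 3′ on the gene's strand. Capitals mark CACGCG or its reverse complement CGCGTG, a variant E-box that was searched after the values had been seen.
CDR2, chr16:22374620-22374869, minus strand: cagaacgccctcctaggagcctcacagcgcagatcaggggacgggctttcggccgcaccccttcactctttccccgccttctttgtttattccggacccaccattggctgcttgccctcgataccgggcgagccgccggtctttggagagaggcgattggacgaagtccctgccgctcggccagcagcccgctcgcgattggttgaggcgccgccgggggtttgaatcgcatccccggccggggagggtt
PPIF, chr10:79347219-79347468, plus strand: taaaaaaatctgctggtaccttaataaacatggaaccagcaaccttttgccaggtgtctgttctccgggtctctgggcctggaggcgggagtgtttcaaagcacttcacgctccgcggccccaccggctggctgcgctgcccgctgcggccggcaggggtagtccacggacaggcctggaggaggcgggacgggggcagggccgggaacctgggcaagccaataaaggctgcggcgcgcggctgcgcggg
DBF4, chr7:87876243-87876492, plus strand: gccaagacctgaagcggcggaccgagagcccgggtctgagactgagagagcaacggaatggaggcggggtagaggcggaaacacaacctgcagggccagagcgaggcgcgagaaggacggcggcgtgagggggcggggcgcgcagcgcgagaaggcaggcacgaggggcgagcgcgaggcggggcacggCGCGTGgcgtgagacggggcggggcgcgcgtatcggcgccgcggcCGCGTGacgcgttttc
SINHCAF, chr12:31326151-31326400, minus strand: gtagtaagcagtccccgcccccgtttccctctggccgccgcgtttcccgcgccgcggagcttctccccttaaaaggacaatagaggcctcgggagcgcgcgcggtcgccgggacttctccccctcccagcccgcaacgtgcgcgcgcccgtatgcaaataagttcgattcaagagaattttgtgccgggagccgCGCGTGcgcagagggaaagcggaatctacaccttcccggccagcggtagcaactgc
DIMT1, chr5:62403906-62404155, minus strand: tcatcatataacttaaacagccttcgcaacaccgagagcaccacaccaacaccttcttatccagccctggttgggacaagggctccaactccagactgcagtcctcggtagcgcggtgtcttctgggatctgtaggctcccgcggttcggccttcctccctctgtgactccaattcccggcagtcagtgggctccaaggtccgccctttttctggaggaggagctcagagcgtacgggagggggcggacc

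The motif search used 300 bases, from 250 before to 50 after the start. CACGTG, which reads the same on both strands, was in none of the 5 risers and none of the 4 fallers searched. It was in 7.27% of all 27305 promoters and 10.1% of those of the genes tested. Among the fallers, GARRE1 had no entry in the promoter table. CACGCG or CGCGTG was in 3 of the 5 risers, against 11.1% of all promoters and 18.0% of those of the genes tested. DBF4 held it at 61 and 16 bases before the start, SINHCAF at 56 bases before it, and DIMT1 at 39 bases after it, outside the printed stretch. Among the fallers the promoter of LINC00205 held it, at 18 bases before the start. The DBF4 and SINHCAF promoters thus carry the letters close to the start, and those of CDR2 and PPIF carry neither motif in this window. A match is no measure of binding.

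Among the risers, CDR2 encodes a coiled-coil protein best known as the antigen of paraneoplastic cerebellar degeneration, and the protein can bind MYC in the cytoplasm. Its signal was 325.6, 287.4 and 301.6 at time 0 and 435.1, 421.8 and 454.6 at time 4. All 3 arrays of time 4 were above all of time 0, with little spread in either group. CDR2 rose by 0.52 on the log2 scale (SE 0.09, adjusted p = 0.0116 with the block and 0.0856 without it, limma). In the mock line it read 274.9 at time 0 and 209.6 at time 4, a change the other way.

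PPIF encodes cyclophilin D, a mitochondrial prolyl isomerase that regulates the permeability transition pore. It read 843.5, 693.1 and 672.2 at time 0 and 991.1, 960.6 and 992.4 at time 4. The groups did not overlap, and the time 4 arrays lay close together. The log2 change was 0.42 (adjusted p = 0.0116 with the block, 0.340 without it, limma), and a second probe set of the gene moved by 0.42 as well. The mock line moved from 659.3 to 692.8.

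DBF4, the activating subunit of the CDC7 kinase that fires replication origins, read 757.8, 680.5 and 585.8 at time 0 and 979.6, 909.7 and 765.5 at time 4. Replicate 1 was the highest and replicate 3 the lowest at both times, and the time 4 arrays lay just above those of time 0. The log2 change was 0.39 (adjusted p = 0.0122 with the block and 0.469 without it, limma). The mock line rose from 424.9 to 589.1 between its single arrays, a log2 difference of 0.47 that is as large as that of the MYCN line.

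DIMT1 dimethylates the RNA of the small ribosomal subunit, and was the riser nearest to the threshold. Its signals were 894.5, 727.3 and 762.4 at time 0 and 1145.7, 1006.3 and 901.6 at time 4, with the lowest time 4 array only just above the highest of time 0. The log2 change was 0.36 (adjusted p = 0.0484 with the block, 0.598 without it, limma), and its 3 other probe sets differed in the same direction, by 0.27 to 0.42. In the mock line it read 698.2 and 784.8.

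SINHCAF, a subunit of the SIN3 histone deacetylase complex, read 401.9, 342.9 and 366.6 at time 0 and 535.6, 484.8 and 558.3 at time 4. The groups were well apart, and the log2 change was 0.51 (adjusted p = 0.0333 with the block and 0.0981 without it, limma). A second probe set differed by 0.37. The mock line, higher in this gene at both times, read 562.4 and 680.5.

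TRIB1, a pseudokinase that brings the ubiquitin ligase COP1 to its substrates, had the largest rise after MYCN among the genes called. It read 241.9, 187.0 and 164.7 at time 0 and 333.4, 300.7 and 404.2 at time 4. Replicate 3 was the lowest array of time 0 and the highest of time 4. The log2 change was 0.81 (SE 0.15, adjusted p = 0.0343 with the block and 0.0981 without it, limma). Its 2 other probe sets were dim and differed the other way, and when all probe sets of a gene were averaged the change was 0.05. The mock line read 138.0 and 163.7.

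The 5 fallers were dimmer, with time 4 signals of 173.6 or less on every array. MOB3A, of the family of MOB kinase activators, read 109.9, 151.1 and 134.8 at time 0 and 65.7, 95.3 and 77.5 at time 4, a log2 change of -0.74 (adjusted p = 0.0333 with the block, 0.450 without it, limma). LINC00205, a long noncoding RNA, read 190.2, 260.1 and 223.4 at time 0 and 137.1, 162.8 and 173.6 at time 4, and all 4 of its other probe sets with a signal above the filter differed in the same direction. Both genes had every time 4 array under every time 0 array, and the log2 change of LINC00205 was -0.50 (adjusted p = 0.0343 with the block, 0.450 without it, limma). GARRE1, an effector of the GTPase RAC1, read 107.7, 140.6 and 136.3 at time 0 and 73.3, 77.0 and 102.2 at time 4, with a log2 change of -0.61 (adjusted p = 0.0484 with the block and 0.478 without it, limma). ZSCAN30, a zinc finger protein with a SCAN domain, was the dimmest of them. It read 40.2, 60.5 and 48.7 at time 0 and 14.9, 32.2 and 29.9 at time 4, a log2 change of -1.02 (adjusted p = 0.0484 with the block, 0.450 without it, limma). Of its 4 other probe sets 2 differed in the same direction. The brightest of them, as bright as the one used, differed by -0.64 and its groups overlapped.

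ALLC, named after allantoicase, differed from the other fallers in that its groups overlapped. It read 145.3, 162.7 and 238.8 at time 0 and 100.9, 102.3 and 146.6 at time 4. Replicate 3 was the highest at both times, so that the fall shows only within replicates. The log2 change was -0.63 (adjusted p = 0.0471 with the block and 0.701 without it, limma). In the mock line all 5 fallers were also lower at time 4 than at time 0, by 0.24 to 0.45 on the log2 scale. Of the 6 risers 5 were higher in the mock line too, and CDR2 was the exception. The mock line has a single array per time, and how much of each change the drug or the culture time makes was not tested by it beyond the comparison of the lines given further on. When the arrays were centred to equal medians, none of the 5 fallers was called and CDR2, PPIF, DBF4, SINHCAF and TRIB1 were.

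**Figure D2:**
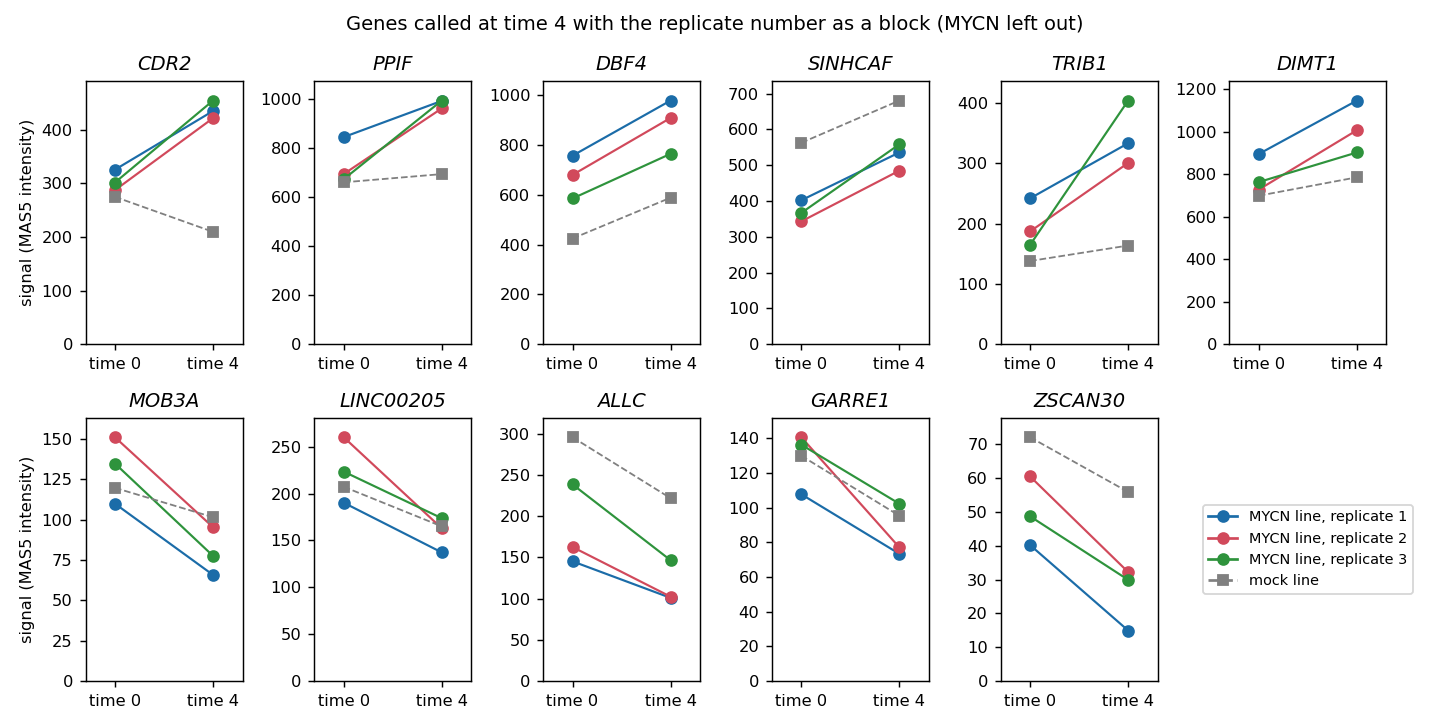
Signal (linear axes from 0) of the 11 genes other than MYCN called at time 4 with the replicate block, on each array at times 0 and 4, with lines joining arrays of the same replicate number or of the mock line. In every gene the 3 replicates move the same way, and the mock line moves the opposite way only for CDR2.

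No other large change passed the test. At an unadjusted limma p under 0.05 there were 285 genes higher (2.4%) and 493 lower (4.16%), of which 15 (0.126%) and 21 (0.177%) differed by at least 2-fold. Between the mock arrays 74.4% of the 285 and 76.7% of the 493 differed in the same direction, against 47.1% and 52.7% of all genes. Genes with all 3 time 4 arrays above time 0 numbered 491 (4.14%), and those with all 3 under it 864 (7.28%). The median change over all genes was -0.03.

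The largest differences at that unadjusted level were in dim genes. DRD2, a dopamine receptor, read 6.7, 0.7 and 9.3 at time 0 and 21.1, 11.7 and 22.3 at time 4 (log2 difference 2.33, adjusted p = 0.469, limma). LCN1, a lipocalin, read 16.2, 22.6 and 15 and then 12.8, 0.7 and 1.8 (-2.80, adjusted p = 0.450, limma). In the mock line LCN1 read 120.3 to 347.9, and it reached the filter through that line alone. One array of DRD2 at time 0 and a pair of LCN1 arrays at time 4 were far under the others of their group. STEEP1, which helps move STING out of the endoplasmic reticulum, was brighter, with 32.5, 27.4 and 21.7 at time 0 and 47.9, 54.8 and 70.7 at time 4 (1.09, adjusted p = 0.450, limma). Its groups were apart, but it did not pass the test.

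**Figure D3:**
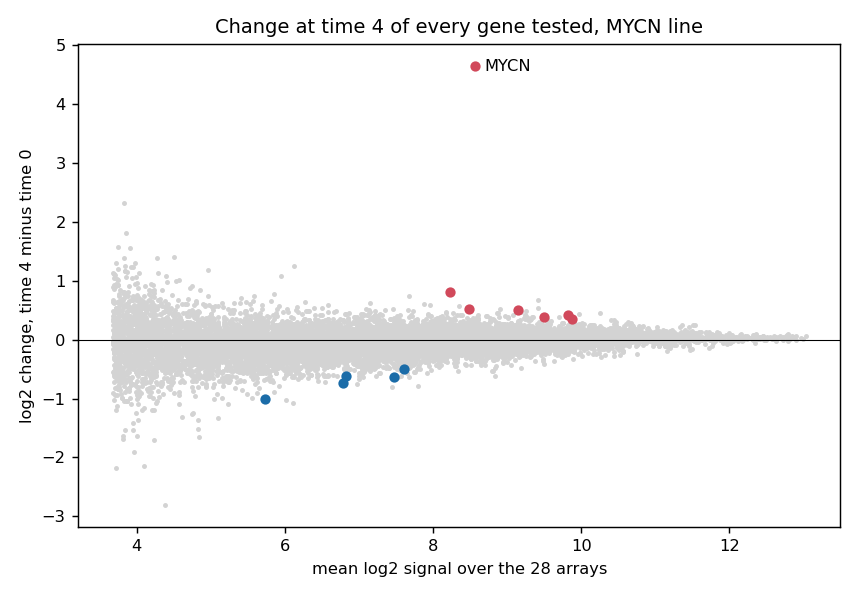
Log2 change from time 0 to time 4 in the MYCN line against the mean log2 signal for the 11865 genes tested, with the genes called with the replicate block marked. MYCN stands alone at 4.65, the other called genes lie within 1.02 of 0, and the scatter widens toward dim genes.

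In the gene groups of the MYC network and those known to follow MYC, no member other than MYCN was called at time 4. In the MYC network (10 tested) MYCN was the single member called. MYC itself read 308.2, 130.9 and 222.9 at time 0 and 217.4, 134.7 and 176.3 at time 4, and MAX, the partner of MYCN, read 969.3, 956.5 and 886.2 and then 988.1, 926.0 and 1029.7. In neither gene were the groups apart, with log2 differences of -0.27 and 0.07 (adjusted p = 0.969 and 0.933, limma).

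In the list of MYC-induced growth and cell cycle genes (26 tested) 0 were called, with or without the block. At an unadjusted limma p under 0.05, 2 were higher (7.7%) and 1 lower (3.8%), against 2.4% and 4.16% of all genes. The median log2 difference was 0.08, and 0.06 in the mock line. ODC1, the rate-limiting enzyme of polyamine synthesis, read 1479.8, 1257.0 and 1300.9 at time 0 and 1574.1, 1614.3 and 1577.7 at time 4, a difference of 0.24 (adjusted p = 0.550, limma). Its groups did not overlap, though the gap was small, and the mock line read 1005.5 and 1005.4. E2F1, a transcription factor of the G1/S step, read 165.7, 179.2 and 186.5 and then 116.6, 118.1 and 83.3 (-0.76, adjusted p = 0.450, limma), while the mock line differed the other way, by 0.59. Among MYC-repressed genes (26 tested) 0 reached an unadjusted limma p under 0.05, and the median difference was 0.05.

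Ribosome biogenesis (26 tested) had 0 called and 4 higher (15.4%, against 2.4% of all genes) at an unadjusted limma p under 0.05. The median difference was 0.07, against 0.00 in the mock line. The 4 were NIP7, POLR1C, LYAR and WDR12. NIP7, which acts in the assembly of the large ribosomal subunit, read 567.0, 674.7 and 814.8 and then 755.8, 795.2 and 988.6, so that its groups overlapped (0.31, adjusted p = 0.664, limma). POLR1C, a subunit of RNA polymerases I and III, read 362.9, 291.6 and 341.1 and then 405.1, 407.2 and 416.1 (0.31, adjusted p = 0.684, limma).

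Nucleotide, polyamine and one-carbon synthesis (26 tested) likewise had 0 called and 4 higher (15.4%) at that unadjusted level, ODC1, AMD1, MTHFD2 and PPAT. The median was 0.08, and 0.11 for the mock arrays. The circadian clock list (18 tested) had 0 called and 4 higher (22.2%), PER2, CRY1, BHLHE41 and NR1D2, with medians of 0.11 and -0.11. PER2, a repressor of the clock, read 63.8, 65.2 and 60.7 at time 0 and 94.9, 73.3 and 88.5 at time 4, with no overlap (0.43, adjusted p = 0.469, limma). Over all genes 2.4% were higher and 4.16% lower at this level, and the median difference was -0.03. The lists were chosen with earlier results of these data known, so that this comparison is description only.

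The remaining lists, from immediate early genes to cholesterol synthesis, also had 0 called at time 4. The numbers higher and lower at an unadjusted limma p under 0.05 were 1 and 0 of 32 mitochondrial ribosomal proteins, 0 and 1 of 19 chaperones, 1 and 0 of 16 amino acid transporters, 3 and 4 of 38 genes of G1/S and DNA replication, and 1 and 0 of 18 p53 targets. They were 0 and 0 among 26 immediate early genes, 20 genes of ATF4 and endoplasmic reticulum stress, 24 of the interferon response and 17 of cholesterol synthesis. Over all genes 2.4% were higher and 4.16% lower at this level, and in the list of G1/S and DNA replication 7.9% and 10.5%. Medians ran from -0.13 for the interferon response to 0.07 for cholesterol synthesis, whose median in the mock line was 0.19.

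**Figure D4:**
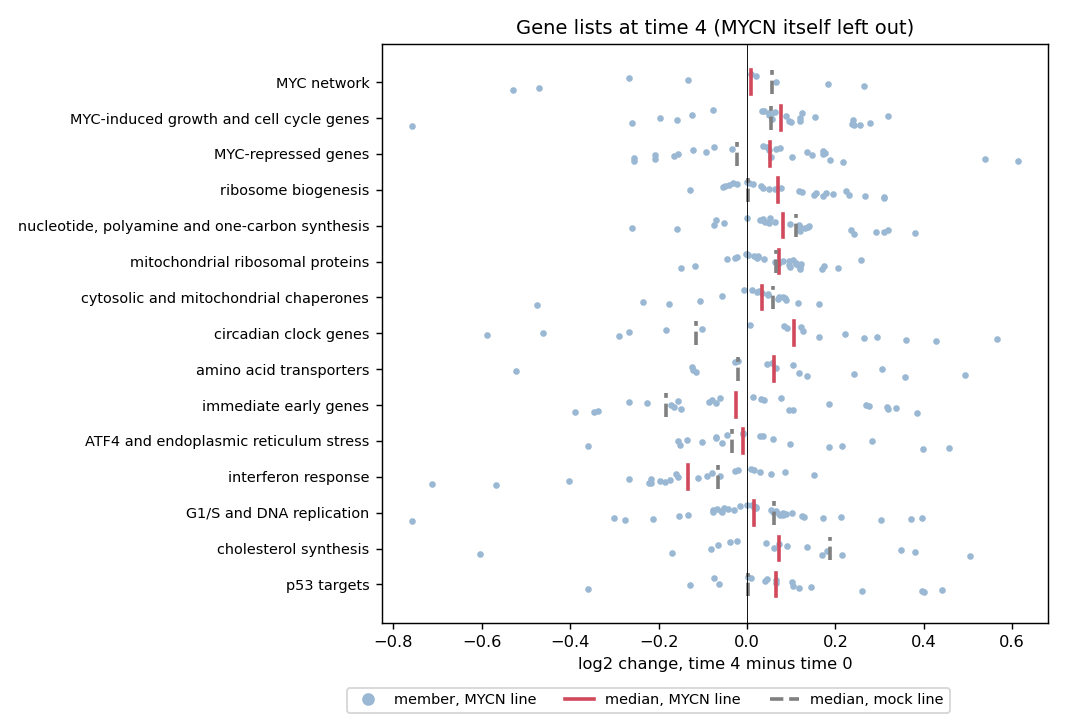
Log2 difference between times 4 and 0 of each tested member (points) of 15 gene lists in the MYCN line, with the median of the list there and in the mock line. MYCN is left out, members scatter around 0 and list medians in the MYCN line lie between -0.13 and 0.11.

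To ask which genes lagged behind MYCN, time 8 was compared with time 4. Limma called 57 genes (0.48%), 43 higher (0.362%) and 14 lower (0.118%), and with the replicate block, which the correlations between these times also allow, 185 (1.56%), 121 higher (1.02%) and 64 lower (0.539%). The count was unstable over arrays: it was 3, 1 and 93 without time 4 replicate 1, 2 or 3, and 35, 0 and 0 without time 8 replicate 1, 2 or 3 (696 and 794 genes with an unadjusted limma p under 0.05 in the last 2 cases). With arrays centred to equal medians 8 genes were called, all 8 of them higher.

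Among the genes that rose from time 4 to time 8 were HSPA1L, DNAJB1, CDKL3, FAM135A, KRCC1, AK4, PER2 and SLC7A2. HSPA1L, a member of the HSP70 family, read 14.1, 22.1 and 11.5 before the drug, 2.8, 2.5 and 9.6 at time 4, then 18.1, 28.9 and 28.9 at time 8. It rose by 2.60 on the log2 scale from time 4 (adjusted p = 0.0137, limma). DNAJB1, its HSP40 co-chaperone, was bright, with 473.5, 620.6 and 416.0 before the drug, 320.2, 341.2 and 417.0 at time 4, then 670.8, 996.4 and 983.8 at time 8. All time 8 arrays of DNAJB1 lay above those of both earlier times, and the rise from time 4 was 1.28 (adjusted p = 0.00611, limma). The mock line followed the same course, with 399.0, 375.0 and 727.7.

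CDKL3, a kinase related to the cyclin-dependent kinases, read 22.1, 41.9 and 20.3 before the drug, 11.7, 8.2 and 12.4 at time 4, then 32.5, 39.3 and 41.6 at time 8. Time 4 was the lowest point, also in the mock line (21.9, 14.1 and 20.9), and the rise from time 4 to 8 was 1.83 (adjusted p = 0.00611, limma). FAM135A rose by 1.5, KRCC1 by 1.11 and AK4, a mitochondrial adenylate kinase, by 1.16 (limma adjusted p = 0.0443, 0.0194 and 0.0196). The AK4 rise was not seen with probe sets of the suffixes _s_at and _x_at left out (-0.03).

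PER2 read 132.2, 159.4 and 182.6 at time 8, a rise of 0.88 over time 4 (adjusted p = 0.00611, limma), and 222.2, 226.9 and 227.7 at time 24. The mock line, at 60.1, 68.4, 79.4 and 78.5 at times 0, 4, 8 and 24, stayed low. SLC7A2, a transporter of cationic amino acids, rose by 0.83 (adjusted p = 0.0160, limma).

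The genes that fell from time 4 to time 8 included CDCA4 (-0.86, adjusted p = 0.0292, limma), ZNF697 (-0.74), the chromatin reader ING2 (-0.69), the RNA methylation factor RBM15 (-0.66), the origin recognition subunit ORC1 (-0.64) and BARD1, the partner of BRCA1 (-0.63). BARD1 averaged 295 ± 32.1 (SD, n = 3) at time 0, 346 ± 31.2 at time 4 and 223 ± 11.1 at time 8. In the mock line 37 of the 43 genes that rose (86.0%) and 14 of the 14 that fell differed in the same direction between its single arrays, against 53.6% and 46.2% of all genes.

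The genes called at time 4 with the block were followed to time 8 as well. The time 4 arrays enter both comparisons with opposite signs, so the values are given as description. From time 4 to time 8 the 6 risers differed by -0.30 (CDR2) to 0.04 (DIMT1), and limma called 0 of them with or without the block. All 5 fallers were higher again, by 0.33 (LINC00205) to 1.04 (ZSCAN30). With the block, 3 of these were called, ALLC (0.62, adjusted p = 0.00858), GARRE1 (0.51, 0.0303) and ZSCAN30 (1.04, 0.00760), and without it 0 were (limma). ZSCAN30 read 45.7, 57.3 and 48.0 at time 8, within its range at time 0.

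Set against time 0, which all later comparisons share, TRIB1 differed by 0.69, 1.21, 1.41, 1.49 and 1.53 at times 8, 24, 48, 96 and 192. SINHCAF differed by 0.40, 0.60, 0.78, 0.88 and 0.78 at these times, PPIF by 0.41, 0.50, 0.62, 0.80 and 0.74, and DIMT1 by 0.40, 0.46, 0.48, 0.70 and 0.55. The risers thus stayed above time 0 throughout, TRIB1 with the widest gap, while DBF4 ran between 0.31 and 0.46 and CDR2 between 0.22 and 0.69. The fallers did not return steadily. At times 8, 24, 48, 96 and 192 ALLC differed by -0.01, -0.26, -0.20, -0.56 and -0.09, MOB3A by -0.31, -0.48, -0.25, -0.05 and -0.19, and LINC00205 by -0.18, -0.03, -0.13, -0.39 and -0.09. GARRE1 lay between -0.10 and -0.30 and ZSCAN30 between 0.01 and 0.31. Every one of these values was nearer to 0 than at time 4. Risers and fallers were chosen by their arrays at times 0 and 4, so these courses are description and no test.

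**Figure D5:**
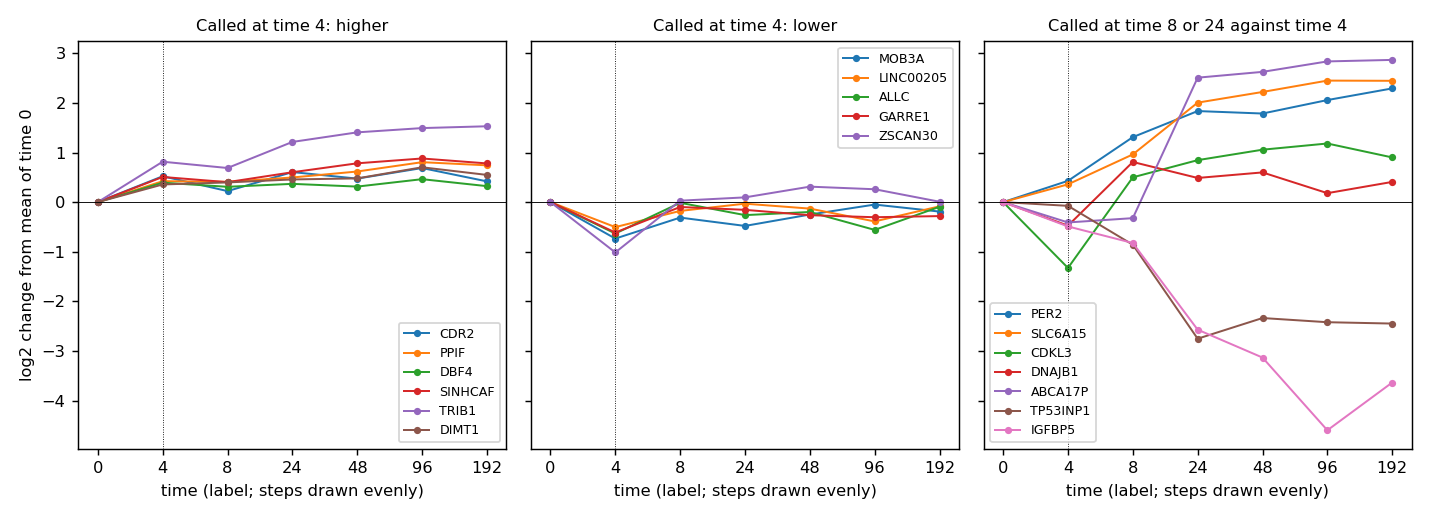
Log2 difference from time 0 of the genes called at time 4 with the replicate block, over the 6 later times, risers and fallers apart, as means of 3 arrays. The 6 risers stay above 0 to time 192, with TRIB1 reaching 1.53, whereas each of the 5 fallers is lowest at time 4. The genes were chosen by their arrays at times 0 and 4.

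Between time 4 and time 24 many more genes moved. Limma called 812 genes (6.84%), 487 higher (4.1%) and 325 lower (2.74%). Between the mock arrays 73.1% of the 487 and 62.2% of the 325 differed in the same direction, against 53.2% and 46.5% of all genes. With arrays centred to equal medians the split was 348 higher and 128 lower. The count was 307 without time 4 replicate 1, 471 without time 4 replicate 2, and 432, 472 and 455 without time 24 replicate 1, 2 or 3.

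The largest rise was in ABCA17P, a transporter pseudogene, which read 20.3, 24.7 and 13.9 before the drug, 12.7, 14.8 and 15.8 at time 4, then 10.6, 23.8 and 14.1 (time 8), and reached 105.1, 117.0 and 104.5 at time 24. It was dim up to time 8, and at time 24 it rose by 2.92 over time 4 (adjusted p = 1.80e-06, limma), while the mock line stayed between 7.9 and 23.7. The largest fall was in TP53INP1, a p53-induced regulator of cell death, with 32.0, 65.1 and 41.9 before the drug, 35.8, 51.1 and 40.8 at time 4, then 23.2, 24.6 and 25.6 (time 8), and finally 7.3, 4.1 and 9.5 at time 24. It fell by 2.68 from time 4 to time 24 (adjusted p = 0.000801, limma), with all time 24 arrays under the signal of 12.8 used as the filter, so that the size and rank of the fall are uncertain, while in the mock line it read 79.5 and 118.2. IGFBP5, which binds insulin-like growth factors, fell by 2.08, CBLN2, a synaptic organizer, by 2.10, CAPS, a calcium-binding protein, by 2.63, PSG6 by 2.47 and ADAMTS13, the protease of von Willebrand factor, by 2.06 (limma adjusted p = 0.00261 to 0.0314). The time 24 means of CAPS, PSG6 and ADAMTS13 were under 12.8 too.

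HSPA1L and CDKL3, low at time 4, were also among the largest rises to time 24, with 2.32 and 2.17, as were LCN1 (2.64), SCG5 (2.14) and the Hedgehog pathway factor GLI1 (2.0). In each of these 5 genes all time 4 arrays lay under all time 0 arrays, without a call, and the mean at time 4 was 10.8 or less. The time 4 arrays enter both differences. LCN1 reached the filter only through its mock signals, given above.

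The same gene lists were counted between times 4 and 24. They were chosen with earlier results of these data known, so the counts are description and no independent test. Of the MYC network 3 of 10 rose from time 4 to time 24: MYCN by 1.07, MXI1, a MAX partner that opposes MYC, by 1.27, and MAX by 0.36 (limma adjusted p = 0.000801, 0.000267 and 0.00416). Of 26 MYC-induced genes 4 rose, ODC1 (0.44), HMGA1 (0.81), CCNE1 (0.42) and RIOX2 (0.41), and 0 fell. Of 26 MYC-repressed genes 4 fell, the cell cycle inhibitors CDKN1B (-0.38) and CDKN1C (-0.99), NDRG4 (-1.61) and TP53INP1 (-2.68), and 0 rose.

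Of 26 ribosome biogenesis genes 3 rose, RRP9 by 1.26, POLR1B by 0.39 and WDR12 by 0.30, and 0 fell. Of 19 chaperones 6 rose, among them HSPH1 (0.73) and the mitochondrial co-chaperonin HSPE1 (0.44), and of 32 mitochondrial ribosomal proteins 3 rose, MRPL18, MRPS15 and MRPS5. Of 24 interferon response genes 5 fell, the factors IRF7 (-1.02) and IRF9 (-0.89) with IFIT2, IFIT3 and IFI35. Of the 18 clock genes PER2 (1.41) and CRY1 (0.91) rose and BMAL1, the activator that they repress, fell by 1.46. Nucleotide, polyamine and one-carbon synthesis had 4 risers, ODC1, PPAT, GART and ATIC, and 2 fallers, RRM2 (-0.68) and IMPDH2 (-0.31). Of 16 amino acid transporters 2 rose, SLC6A15 and SLC7A2, each by 1.65. Of 18 p53 targets 3 fell, TP53I3 (-0.82), DDB2 (-0.84) and TP53INP1, which the MYC-repressed list also holds. Of 17 cholesterol synthesis genes 2 fell, IDI1 (-0.55) and STARD4 (-0.64). Of 38 genes of G1/S and DNA replication CCNE1 (0.42) and RFC4 (0.32) rose and ORC1 (-0.56) fell. Of 26 immediate early genes SPRY2 (-0.65) fell, and of 20 genes of ATF4 and endoplasmic reticulum stress DNAJB9 (0.72) rose and CTH (-0.90) fell. These shares stand beside 4.1% higher and 2.74% lower among all genes.

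The change from time 0 to time 4 was then compared between the lines. Over all 28 arrays limma called 6 genes (0.0506%) in which the change in the MYCN line differed from that in the mock line, and 8 (0.0674%) with the replicate block. With 1 mock array per time, the test assumes that the mock line varies as the MYCN line does. MYCN differed by 4.92 (adjusted p = 2.12e-07). With the block CDR2 was among the genes called: its change was 0.91 larger in the MYCN line (adjusted p = 0.0336 with the block, 0.0847 without it, limma), and it was the single gene of the 11 called at time 4 besides MYCN for which this difference passed. It was not called when the block was fitted on the arrays of times 0 and 4 alone. The 5 other genes called without the block had log2 differences from -4.35 (DLX2) to 3.04 (PODN) between the mock arrays and from -0.31 (APLP1) to 0.48 (ZYG11A) in the MYCN line, where none of the 5 was called at time 4. SYNGR3, a synaptic vesicle protein, read 51.4, 95.2 and 62.3 at time 0 and 51.5, 60.8 and 57.6 at time 4, while the mock line went from 16.2 to 0.9. With the low-signal scatter damped by taking log2(signal + 16), MYCN was the single gene called.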

How the data were processed

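The authors deposited 1 linear intensity per probe set and array for 28 single-colour Affymetrix arrays. MAS5 and GCOS, which summarise probes and scale arrays, are named without version by the submitters' processing notes. Of 54675 probe sets, 41097 named 1 gene in the platform annotation and 62 controls were left out. A floor of 0.1 replaced 91 values that were not above 0, values were taken to log2, and each gene was represented by its probe set of highest mean. The tested genes lay at the 40th percentile of mean log2 signal or higher. Small signals scatter widely on the log scale.

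Contrasts were fitted with limma 3.58.1 in R 4.3.3 (lmFit, eBayes with trend) over all 21 MYCN-line arrays (14 residual degrees of freedom, or 12 with replicate as a block), and over all 28 for the comparison of lines. P-values were two-sided. The pipeline was tested on simulated data. The labels number the replicates without saying what a number marks. Deviations of same-numbered arrays correlated above 0.1 in every pair between times 0 and 4 and between times 4 and 8 (0.17, 0.26 and 0.44). This did not hold between times 4 and 24 (0.05 in replicate 1). There replicates 1 and 2 correlated at 0.05 and 0.12 with their own number and at up to 0.129 and 0.196 with another. The signal of the bioD hybridisation control separated 14 arrays at 1558 to 1945 (MYCN line, replicates 1 and 2) from 14 at 2231 to 2548 (replicate 3, mock). The labels name no batch; these 2 sets were used as batches in alternatives.

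Named were MYCN, MYC and MAX, the genes called at time 4 with or without the block, the largest differences, and list members. Members and the 21 lists (437 genes) were chosen with earlier results of these data known. The variant E-box and the stability of blocked calls were examined after the values had been seen. Alternatives were normalization, probe set choice, low-signal filter, pseudocount, blocks, and arrays left out.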

Additional observations from a re-analysis of the deposited data

Results flagged for a closer look

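The change from time 0 to time 4 differed between the lines in 6 genes by the limma test of the difference (n = 3 against 3 in the MYCN line, 1 against 1 in the mock line). MYCN was one of them, with a difference of 4.92 on the log2 scale (adjusted p = 2.12e-07), from 4.65 in its own line against -0.28 in the mock. SYNGR3 differed by 3.92 (adjusted p = 0.0105), DLX2, a homeobox factor, by 4.40 (adjusted p = 0.0187) and ZYG11A, a substrate receptor of a ubiquitin ligase, by 2.48 (adjusted p = 0.0494). In these 3 the mock signal dropped between its single arrays, from 16.2 to 0.9, from 24.5 to 1.2 and from 3.6 to 0.9, and the MYCN line differed by -0.25, 0.05 and 0.48. APLP1, an amyloid-precursor-like protein, had a difference of -2.80 (adjusted p = 0.0187) and PODN, a proteoglycan of the extracellular matrix, one of -3.09 (adjusted p = 0.0494). Their mock signals went from 4.2 to 23.6 and from 2.4 to 19.7. In all 5 genes other than MYCN at least 1 of the pair of mock arrays was under the signal of 12.8 used as the filter. With log2(signal + 16), which damps the scatter of low signals, none of the 5 was called. The cause of the mock differences was not tested.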

How the results depend on the processing

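At time 4 against time 0, MYCN lost its rise and its call only without probe sets of the suffixes _s_at and _x_at. Its log2 change there was -0.72 with and without the replicate block, and its difference between the lines was -1.49. With averaged probe sets of a gene MYCN was under the filter and was not tested. It kept its rise and its call in every other setting run. Without the suffixed probe sets AK4 had a change of -0.029 from time 4 to time 8. The count without the block (1) became 12 with the replicate block, 3 with the block and only the arrays compared (MYCN, PABPC1L and RET, so that 11 of the 12 were lost), 3 with the bioD set as a block, and 0 for averaged probe sets (690 genes with an unadjusted limma p under 0.05; 1146 with the block). Leaving out arrays gave 1 to 2. The count with the replicate block (12) became 1 without it, 6 with equal array medians, 3 for averaged probe sets, and 1 to 8 with arrays left out (5, 1 and 1 without time 0 replicate 1, 2 or 3, 3, 8 and 7 without time 4 replicate 1, 2 or 3). Over 16 or 17 settings PPIF was called in 11, CDR2 in 10, DBF4 and TRIB1 in 8, LINC00205, MOB3A and SINHCAF in 6, ALLC in 3, GARRE1 and ZSCAN30 in 2 and DIMT1 in 1. From time 4 to time 8 the count (57) became 185 with the replicate block, 1 with only the arrays compared, 817 with those arrays and the block, 8 with equal array medians, 16 for averaged probe sets, 120 with the bioD set as a block, 19 within replicates 1 and 2, and 0 to 93 with arrays left out (0 also without replicate 2, where 444 genes had an unadjusted limma p under 0.05). From time 4 to time 24 the count (812) became 1628 with the replicate block, where the numbers share only a number, 1918 with the block and only the arrays compared, 476 with equal array medians, 488 for averaged probe sets, 528 without the suffixed probe sets, 1462 with the bioD set as a block, and 73 to 682 with arrays left out. The 6 differences between the lines became 1 with only the arrays compared, 2 with no filter, 1 with a filter at the 60th percentile, 1 with log2(signal + 16), 13 without the trend, and 1 with any replicate number left out. The causes were not tested. Dim signals and 3 arrays per time limit what can be detected.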
